A study of Mus musculus with 31 samples.

Results

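Type7 and Type6 are the last stages of a series of mouse oocytes taken from growing ovarian follicles, and both came from antral follicles, the fluid-filled follicles that precede ovulation. The comparison takes every library titled Type7 OC (3) and every library titled Type6 OC (3), 6 of the 31 libraries of the series. All are of the hybrid strain B6D2F1, a cross of C57BL/6 and DBA/2, untreated as far as the labels say. The labels give no follicle or oocyte size, animal age, number of oocytes or number of animals, so the spread behind every p-value is that between libraries and may be purely technical. Another label gives embryo stages, at odds with the titles, and was set aside. Earlier stages serve as landmarks: Type2 from primordial follicles and Type5b from secondary follicles, with 3 libraries each.

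Mouse oocytes start growth with little DNA methylation. While they grow, the methyltransferase DNMT3A and its partner DNMT3L add methylation, largely over transcribed gene bodies and the CpG islands inside them, and DNMT1 copies methyl marks at replication. Among the CpG islands methylated on the way are the control regions of maternally imprinted genes, whose marks are kept in the embryo. A fully grown oocyte therefore carries a pattern of highly methylated domains next to unmethylated ones.

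Methylation was measured by reduced representation bisulfite sequencing, in which the enzyme MspI cuts DNA at CCGG and bisulfite treatment turns unmethylated C into T. The libraries held 38633220, 25881405 and 12070769 reads over CpG sites in Type7, against 60361665, 32988614 and 52177274 in Type6. A tile is a fixed stretch of 100 bp with at least 3 CpG sites that had at least 5 reads each, and its level is the share of methylated reads. Of 163350 tiles measured in any library of the series, 31922 were measured in all 6 antral libraries. A level is a share of reads, so cells that differ and partial methylation within a cell cannot be told apart.

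A pair of the Type6 libraries stood apart on the X chromosome, whose CpG-dense stretches are methylated on the inactive X of female body cells. The mean level of 48 CpG-dense X tiles (at least 60 sites within 1 kb) was 4.31, 4.22 and 4.87% in Type7 replicates 1 to 3. It was 11.6, 11.8 and 4.24% in Type6 replicates 1 to 3. At 2101 CpG-dense autosomal tiles the levels were 11.7, 11.8 and 11.7% in Type7, against 12.2, 12.6 and 12.1% in Type6. Of the 3 paternally methylated imprint windows, which oocytes leave unmethylated and body cells methylate on 1 allele, only H19 had any read, at 1 or 2 sites, below the tile minimum. There, 0 of 5 reads were methylated in Type7 replicate 1 and 0 of 19 in Type7 replicate 2, against 15 of 19 in Type6 replicate 1; the other 3 libraries had no value. The mean level, the imprint windows, the classes by Type2 level, Type5b level and CpG density and the counts of calls are therefore also given without Type6 replicates 1 and 2, which leaves 1 Type6 library.

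The difference between the stages ran in opposite directions, depending on the levels a tile had in Type2 and in Type5b. Tiles nearly free of methylation in Type2 and partly methylated by Type5b were higher in Type7 than in Type6, and both the tiles that already held some methylation in Type2 and those still under 20% in Type5b were lower. Averaged over the 31922 tiles, the level was 37.0, 37.4 and 37.0% in Type7, against 40.2, 43.2 and 39.6% in Type6. The groups did not overlap. The difference was -3.89 points (two-sided exact permutation p = 0.1, the smallest that 3 libraries against 3 can give), and it was -2.27 points without Type6 replicates 1 and 2. It rested on tiles shared by all 6 libraries: over every tile each library measured it was -0.58 points (exact permutation p = 0.8), and with reads pooled over sites -0.72 points (exact permutation p = 1).

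Tiles under 20% and tiles at 95% or more both made up larger shares in Type7. The share of tiles under 20% was 47.0, 46.9 and 47.4% in Type7, against 43.1, 40.9 and 43.9% in Type6. Tiles at 95% or more made up 9.75, 9.94 and 10.2% in Type7, against 8.31, 9.17 and 8.19% in Type6. Tiles over 80% were nevertheless fewer, at 19.4% ± 0.194 in Type7 and 22.9% ± 2.68 in Type6 (SD, n = 3 each). For each of these shares every Type7 library lay on one side of every Type6 library (exact permutation p = 0.1 each). The share between 20 and 80% overlapped, with 33.6% ± 0.335 in Type7 and 34.4% ± 1.36 in Type6 (SD, n = 3 each; exact permutation p = 0.5). That intermediate share depended on the cut and filter. Its difference was 2.53 points with at least 5 sites a tile, and -4.18 points between 10 and 90% (exact permutation p = 0.1 each). Median reads per site were 20, 15 and 10 in Type7, against 26, 19 and 25 in Type6. The part of read depth in these shares was not tested. Type7 libraries also resembled each other more, differing by 7.95 to 8.23 points per tile on average. Type6 libraries differed by 9.65 to 10.7 points, and libraries across the stages by 9.64 to 13.0 points.

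Tiles under 5% in Type2 had nearly no methylation at that stage, and most of them, 12660, were still under 20% in Type5b. Where such tiles had reached 50 to 80% in Type5b (692 tiles), the level was 92.3, 93.1 and 94.0% in Type7, against 84.6, 84.1 and 86.9% in Type6. Every Type7 library was above every Type6 library, and the difference was 7.94 points, or 5.98 points without Type6 replicates 1 and 2. The 811 tiles already at 80% or more in Type5b stood at 97.8% ± 0.155 in Type7 and 92.9% ± 1.77 in Type6 (SD, n = 3 each), and the 789 tiles at 20 to 50% in Type5b stood at 55.1% ± 0.793 and, in Type6, at 50.9% ± 2.61. Without Type6 replicates 1 and 2 the differences were 3.69 points for the tiles at 80% or more and 6.45 points for those at 20 to 50%.

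**Figure D1:**
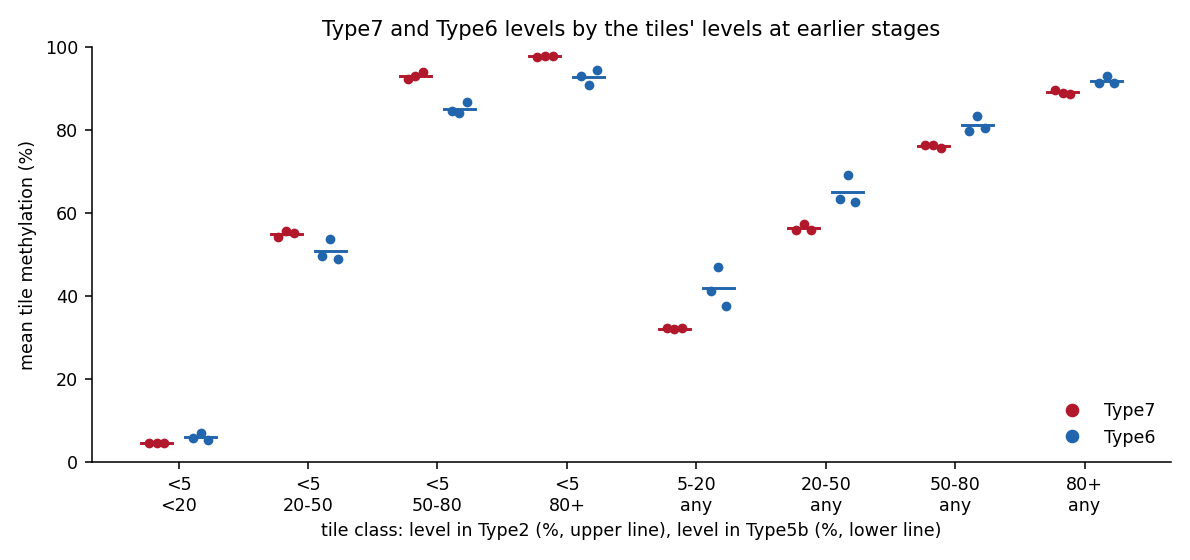
Mean tile methylation (percent) of each Type7 library (red, left) and Type6 library (blue, right) in 8 classes of tiles set by their levels in Type2 and Type5b; points are libraries and bars are means. Type7 is above Type6 in the classes under 5% in Type2 that had passed 20% in Type5b, and below it in the other 5 classes.

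Tiles that had stayed under 20% in Type5b, 12660 of them, were low in both stages, at 4.67% ± 0.0334 in Type7 and 6.04% ± 0.873 in Type6 (SD, n = 3 each). That difference was -1.38 points, -0.90 points without Type6 replicate 2 and -0.62 points without Type6 replicates 1 and 2. Tiles with methylation already present in Type2 were lower in Type7. At 5 to 20% in Type2 (3596 tiles) the level was 32.3, 32.2 and 32.3% in Type7, against 41.2, 47.0 and 37.6% in Type6, a difference of -9.65 points. Without Type6 replicates 1 and 2 that difference was -5.21 points. The difference was -8.70 points at 20 to 50% in Type2 (6713 tiles), -5.06 points at 50 to 80% (4592 tiles) and -2.79 points at 80% or more (334 tiles); without Type6 replicates 1 and 2 these were -6.24, -4.38 and -2.38 points. In each of the 8 classes the 3 Type7 libraries and the 3 Type6 libraries did not overlap (exact permutation p = 0.1, adjusted p = 0.1 over the 8 classes). They were nearest in the class under 5% in Type2 and at 20 to 50% in Type5b. There Type7 replicate 1 was at 54.2% and Type6 replicate 2 at 53.9%. In 200-bp tiles that class differed by 3.29 points (exact permutation p = 0.3). Type6 replicate 3, whose X tiles were low, was the Type6 library nearest to Type7 at 5 to 20% and at 20 to 50% in Type2; in the classes at 50 to 80% and at 80% or more it was Type6 replicate 1, whose X tiles were high. The part of other cells in these values was not tested.

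In an earlier stage, Type4, the libraries with high X tiles stood above the others in all 8 classes, including the classes higher in Type7. In the 5 Type4 libraries, from secondary follicles, tiles at 5 to 20% in Type2 stood at 33.7, 46.4 and 34.5% in replicates 1, 2 and 5, whose CpG-dense X tiles were at 10.9, 19.1 and 11.1%. In Type4 replicates 4 and 6 they stood at 16.99 and 16.3%, with X tiles at 4.89 and 3.21%. The tiles under 5% in Type2 and at 50 to 80% in Type5b stood at 27.1, 37.8 and 26.5% in Type4 replicates 1, 2 and 5, and at 9.01 and 7.16% in replicates 4 and 6.

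Split by the Type5b level alone, the difference between Type7 and Type6 was -2.55 points at 0 to 20%, -9.33 points at 20 to 40%, -7.02 points at 40 to 60% and -4.10 points at 60 to 80% (exact permutation p = 0.1 each, adjusted p = 0.125 over 5 classes). At 80 to 100% it was -0.092 points (exact permutation p = 0.8, adjusted p = 0.8), a value that changed sign under 7 of 13 alternatives. Without Type6 replicates 1 and 2 the 5 differences were -1.38, -4.10, -4.87, -3.40 and -0.39 points, in the same order of classes. By CpG density, the difference was -4.47 points in tiles with 0 to 9 sites within 1 kb and -0.68 points in tiles with 60 or more. At 0 to 9 sites it was -2.71 points without Type6 replicate 2 and -2.60 points without Type6 replicates 1 and 2. At 60 or more sites it was -0.43 points without Type7 replicate 3 and -0.34 points without Type6 replicates 1 and 2. The X chromosome (1778 tiles) stood at 51.9% ± 0.654 in Type7 and 57.6% ± 2.52 in Type6, and the autosomes (30133 tiles) at 36.2% ± 0.201 in Type7 and 40.03% ± 1.90 in Type6 (SD, n = 3 each).

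Each tile was tested by a quasi-binomial fit to its methylated and unmethylated reads in all 31 libraries. Calls needed a Benjamini-Hochberg adjusted p under 0.05 and stage means at least 20 points apart. Of 61037 tiles tested, 236 were called higher in Type7 (0.387%) and 77 lower (0.126%). Of the higher ones, 120 were measured in all 6 libraries, and in 210 the libraries of the stages did not overlap. Of the lower ones it was 60 and 70. The 210 and the 70 include tiles that some of the 6 libraries did not measure, where a lack of overlap is easier to reach. The call itself also favours it. The same share over all tiles tested was not counted, so these counts only describe the called tiles. Unadjusted p-values under 0.05 were found for 7161 tiles (11.7%). The calls lean on the spread seen in all 9 stages: fitted on the 6 antral libraries alone, the model called 0 tiles higher and 1 lower, with 2087 tiles higher at an unadjusted p under 0.05. limma on tile levels called 543 higher and 114 lower, and edgeR called 166 and 120. Without Type7 replicate 1 the model called 63 higher and 17 lower, without Type7 replicate 2 it called 150 and 49, and without Type6 replicate 3 it called 156 lower.

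**Figure D2:**
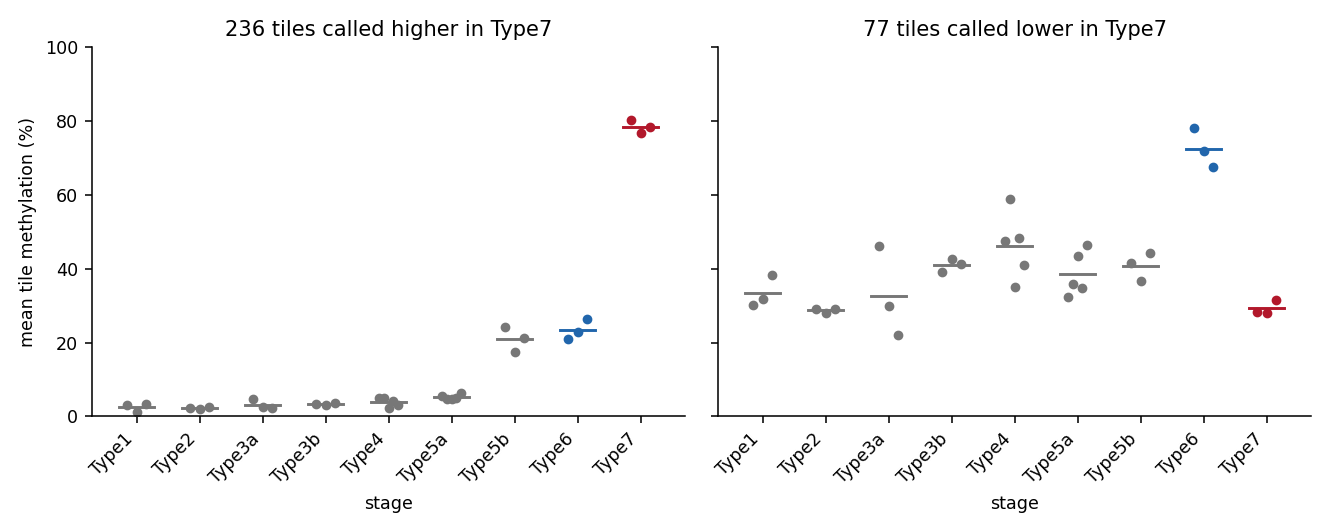
Mean methylation (percent) per library of the tiles called higher (left) and lower (right) in Type7, across the 9 stages in order of growth; points are libraries, bars are stage means, Type7 is red and Type6 blue. The 3 Type7 libraries sit between 76.7 and 80.3% on the left, where earlier stages up to Type5a lie below 7%; on the right Type6 stands above all other stages.

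The 236 tiles called higher were late gainers. Their mean level was 78.4% ± 1.77 in Type7 and 23.5% ± 2.80 in Type6 (SD, n = 3 each), values that the call itself selected. The other stages did not enter the difference: the same tiles stood at 2.34% ± 0.308 in Type2, 5.24% ± 0.711 in Type5a (n = 5) and 21.0% ± 3.44 in Type5b. Of 212 that Type5b measured in at least 2 libraries, 192 had a Type5b level nearer to Type6 and 20 nearer to Type7. The same share over all tiles tested was not counted, so these counts are only a description. Of 235 with a Type2 level, 222 (94.5%) were under 5% in Type2, against 61.5% of all tiles tested. The earlier stages enter the model's spread, which is smaller where they are near 0, so this share is given as a description.

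The 77 tiles called lower had another history. They stood at 29.4% ± 1.93 in Type7 and 72.6% ± 5.24 in Type6 (SD, n = 3 each), against 40.9% ± 3.81 in Type5b and 28.8% ± 0.612 in Type2. Of 75 with a Type5b level, 57 were nearer to Type7 and 18 nearer to Type6, again without a count over all tiles tested. Under 5% in Type2 were 19.5% of the tiles called lower, against 61.5% of all tiles tested. In Type4 the same tiles were at 47.4, 58.8 and 48.5% in replicates 1, 2 and 5, whose X tiles were high, and at 35.1 and 41.0% in replicates 4 and 6. Without Type6 replicates 1 and 2, 36 tiles were called lower, 11 of them among the 77; 151 were called higher, 87 of them among the 236.

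Calls made without a pair of libraries were read again in the pair left out, for each of the 9 pairs of 1 Type7 and 1 Type6 library. Tiles called higher differed by 25.6 points on average in the left-out pairs (SD 4.21 over pairs that share libraries, range 19.97 to 31.2), and 70.6 to 80.6% of them kept their direction. Tiles called lower differed by -10.3 points (SD 4.28, range -16.0 to -2.94), and 57.4 to 81.8% kept their direction. The 81.8% rests on 9 of 11 tiles. All tiles at 5 to 20% and at 20 to 50% in Type2, called or not, differed by -9.65 and -8.70 points. The 77 tiles called lower had a median Type2 level of 25.9%, so the left-out value for lower calls was near that of all tiles with such levels. The shares of all tiles that were higher or lower in a pair were not counted, so the shares that kept their direction have no baseline, for higher and lower calls alike. With each site counted for at most 10 reads, the mean for tiles called lower was 0.88 points; that setting called 20 tiles lower over all libraries, 9 of them among the 77.

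Gene starts could be placed for part of the genome by matching RefSeq promoter sequences (250 bases before to 50 after a start) to the CpG positions in the deposited files. In this way 8764 promoters of 7830 genes were located in the files' build, mm9. Among tiles in a placed promoter, 42 of 6190 were called higher (0.678%) and 0 lower. Tiles in the body of a placed gene were called higher in 25 of 5904 cases (0.423%) and lower in 2, and elsewhere in 169 of 48943 cases (0.345%) and lower in 75. Promoter tiles were near 0 in both stages, at 4.06, 4.48 and 4.25% in Type7, against 3.52, 3.797 and 4.13% in Type6.

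Tested as windows of 300 bases, 48 of 3907 promoters were called higher in Type7 (1.23%) and 1 lower (0.0256%). The 48 windows belong to 46 genes, and overlapping windows merge to 43 stretches. In 27 all 6 libraries had a value, and in 17 of these the groups did not overlap, which the call itself favours. Their median was 78.3% in Type7 and 15.6% in Type6, values set by the call, while the median of all 3907 promoters was 0.229% in Type7 and 1.09% in Type6. In Type2 they were low, with 47 of the 48 under 5%, and in Type5b 34 were under 20%. Neither share was counted over all promoters tested. Of those 3907, 3656 were under 20% in Type7 and 3687 in Type6, so low levels are common among promoters. Over all promoters tested, 127 exceeded 80% in Type7 and 58 in Type6. Fitted on the 6 libraries alone the model called 8 higher, and edgeR called 7. Without Type7 replicate 1 it was 29, without Type7 replicate 2 it was 25, and without Type6 replicates 1 and 2 it was 40.

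The 5 promoters with the largest differences, among those measured in all 6 libraries without overlap, are printed to show the windows called and where in them the CpGs were read. Each run gives 250 bases before and 30 after the start on the gene's strand, 5′ to 3′, from RefSeq (GRCm38.p6). The positions are mm9, from the match to the files, and capitals mark the CpGs read at least 5 times in all 6 libraries, which are 1 of the 16 CpGs printed for Slc37a4 and 6 of the 30 printed for Dnmt1.
Slc37a4 (chr9:44204932-44205211, + strand): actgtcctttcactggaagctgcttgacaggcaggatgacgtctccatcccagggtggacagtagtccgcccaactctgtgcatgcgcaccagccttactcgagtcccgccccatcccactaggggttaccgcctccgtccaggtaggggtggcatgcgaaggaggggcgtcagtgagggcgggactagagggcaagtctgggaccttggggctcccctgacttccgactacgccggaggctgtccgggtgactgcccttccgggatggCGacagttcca
Nkain2 (chr10:32609692-32609971, - strand): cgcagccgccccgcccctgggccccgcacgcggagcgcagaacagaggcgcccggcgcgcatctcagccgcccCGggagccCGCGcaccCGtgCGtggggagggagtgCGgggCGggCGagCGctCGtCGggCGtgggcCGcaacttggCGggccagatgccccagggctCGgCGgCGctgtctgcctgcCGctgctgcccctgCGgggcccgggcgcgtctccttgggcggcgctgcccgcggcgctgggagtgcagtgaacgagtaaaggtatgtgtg
Sgpp2 (chr1:78306671-78306950, + strand): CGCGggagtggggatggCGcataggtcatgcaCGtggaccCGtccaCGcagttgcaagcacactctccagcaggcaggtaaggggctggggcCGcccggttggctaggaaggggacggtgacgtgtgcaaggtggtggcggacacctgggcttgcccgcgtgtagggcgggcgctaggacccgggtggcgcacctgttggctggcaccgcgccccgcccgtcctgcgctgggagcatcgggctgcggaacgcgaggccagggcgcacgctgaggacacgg
Rap1gap2 (chr11:74403659-74403938, - strand): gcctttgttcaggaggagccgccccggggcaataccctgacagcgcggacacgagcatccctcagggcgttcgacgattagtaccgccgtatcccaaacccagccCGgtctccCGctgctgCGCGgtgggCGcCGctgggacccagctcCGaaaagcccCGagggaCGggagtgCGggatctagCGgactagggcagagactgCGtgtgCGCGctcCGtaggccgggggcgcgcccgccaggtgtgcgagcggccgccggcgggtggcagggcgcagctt
Dnmt1 (chr9:20757038-20757317, - strand): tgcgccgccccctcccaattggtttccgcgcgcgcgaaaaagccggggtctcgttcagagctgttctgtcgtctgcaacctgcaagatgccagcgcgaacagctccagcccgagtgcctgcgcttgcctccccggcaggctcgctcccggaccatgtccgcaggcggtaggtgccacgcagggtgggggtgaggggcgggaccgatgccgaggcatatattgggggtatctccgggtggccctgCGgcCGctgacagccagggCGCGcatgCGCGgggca

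CpGs on the same MspI fragment share reads and are not independent. Their levels were not always alike: in Nkain2, single CpGs of Type7 replicate 1 ranged from 0 to 100%. In Nkain2, 19 CpGs were read in all 6 libraries, and at 17 of them every Type7 library was above every Type6 library. In Rap1gap2 it was 13 of 15, in Dnmt1 9 of 9, in Sgpp2 6 of 7 and in Slc37a4 3 of 3, counted over the full 300 bases. These promoters were chosen as windows without overlap, so the counts describe the choice and are no separate support for it. A single CpG in a library rested on at least 6 reads in Dnmt1, 7 in Sgpp2, 9 in Rap1gap2, 19 in Nkain2 and 46 in Slc37a4.

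**Figure D3:**
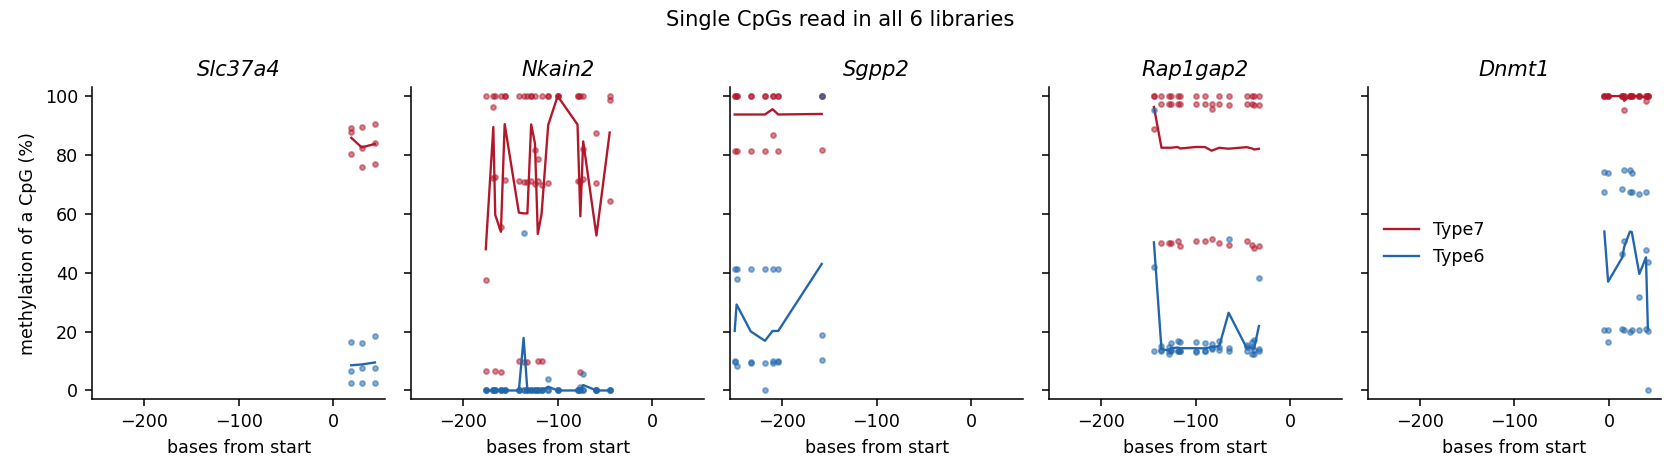
Methylation (percent) of single CpGs read in all 6 libraries against their distance from the gene start in bases, for the 5 printed promoters; points are libraries, lines are stage means, Type7 is red and Type6 blue. The Type7 mean lies above the Type6 mean at every CpG shown.

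Nkain2, which encodes a protein that binds the sodium pump, had 55.7, 70.0 and 96.1% promoter methylation in Type7, against 0, 0.556 and 2.99% in Type6. It was at 0.284% in Type5b. The adjusted p was 6.74e-10 in the quasi-binomial fit, and the call held under all 18 alternatives. Slc37a4, the transporter that brings glucose-6-phosphate into the endoplasmic reticulum, had 81.5, 90.7 and 84.5% in Type7, against 8.55, 2.63 and 16.7% in Type6 (quasi-binomial adjusted p = 0.000211). Its Type5b level was 24.9%.

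Sgpp2, a phosphatase of sphingosine-1-phosphate, had 100, 82.1 and 100% in Type7, against 21.2, 13.0 and 34.6% in Type6 (quasi-binomial adjusted p = 0.00115), and 0% in Type5b. Rap1gap2, which switches off the small GTPase Rap1, had 96.1, 50.2 and 97.9% in Type7, against 19.02, 16.4 and 16.0% in Type6 (quasi-binomial adjusted p = 0.000211). Akap5, an anchor for protein kinase A, was fully methylated in the 3 Type7 libraries at 100%, against 42.2, 56.8 and 41.8% in Type6 (quasi-binomial adjusted p = 0.000211). In Type7 replicate 2 the Rap1gap2 promoter was near 50%, apart from the other 2 Type7 libraries. The Akap5 call was lost without Type7 replicate 1, the Sgpp2 call without Type6 replicates 1 and 2 together, and the Rap1gap2 call in the fit on 6 libraries; edgeR called neither Slc37a4, Sgpp2 nor Rap1gap2.

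Dnmt1, the maintenance methyltransferase, was called at the innermost of its RefSeq starts. This gene has a separate oocyte start further upstream, which was not placed. The window had 99.5, 99.8 and 100% in Type7, against 18.6, 50.4 and 58.7% in Type6 (quasi-binomial adjusted p = 0.00855). It was at 1.27% in Type2, 1.3% in Type4 and 1.85% in Type5a, and at 38.0% in Type5b. The stage mean was 42.6% in Type6, near that of Type5b, and 99.8% in Type7. The call was lost without Type7 replicate 2, without Type6 replicates 1 and 2 together, in the fit on 6 libraries and in edgeR.

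**Figure D4:**
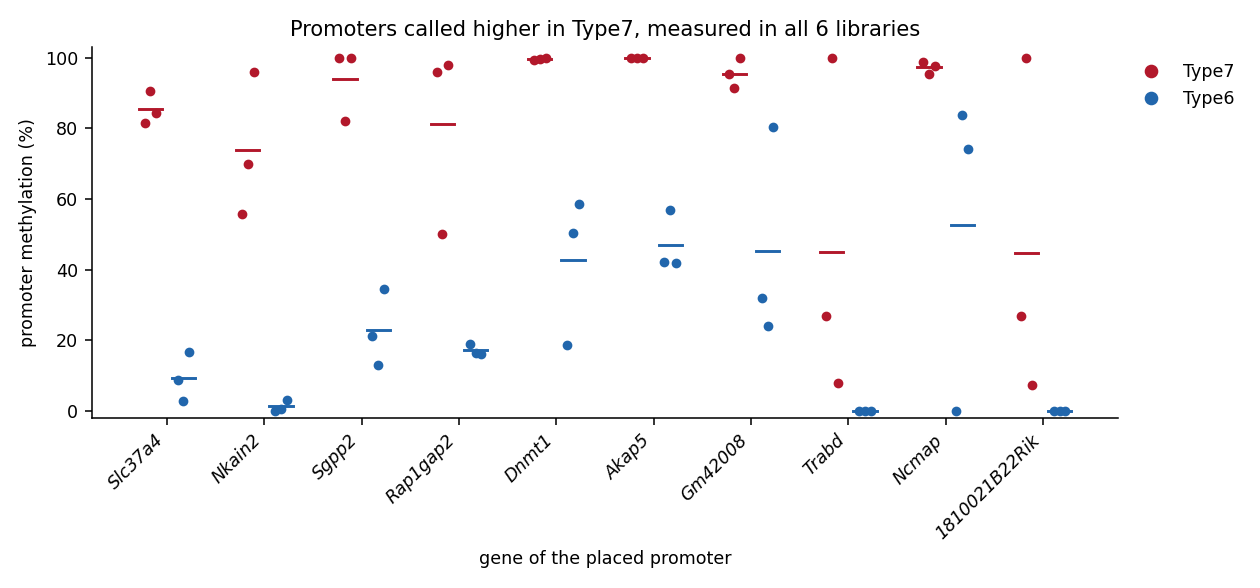
Promoter methylation (percent) of the 10 genes with the largest differences among promoters called higher in Type7, measured in all 6 libraries without overlap; points are libraries, bars are means, Type7 (red) is left of Type6 (blue). All 3 Akap5 values in Type7 are at 100%, and Trabd and 1810021B22Rik share most of their window.

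Other promoters of the 10 varied more between libraries. Ncmap, a gene of non-compact myelin, had 98.8, 95.5 and 97.7% in Type7, against 0, 83.8 and 74.1% in Type6. Trabd and 1810021B22Rik face away from each other across a shared window, which had 26.9, 100 and 7.84% in Type7 (Trabd), against 0% in all 3 Type6 libraries. The predicted gene Gm42008 had 95.3, 91.4 and 100% in Type7, against 31.9, 23.9 and 80.4% in Type6. All 4 calls were lost in the fit on 6 libraries. The Ncmap call was also lost under the replicate block, in edgeR, without Type7 replicate 1 and without Type6 replicate 1. The Trabd and 1810021B22Rik calls were also lost without Type7 replicate 2 and with at least 10 reads a site, and the Gm42008 call in edgeR, without Type6 replicate 2 and without Type6 replicates 1 and 2 together. Outside this set, Gpr3, the receptor that holds mouse oocytes in meiotic arrest, was chosen after its values were seen: it had 43.6, 76.0 and 59.6% in Type7, against 48.2 and 2.74% in 2 Type6 libraries, so the groups overlapped. The 1 promoter called lower, Pde8b, a cAMP phosphodiesterase, had 33.0 and 98.2% in 2 Type7 libraries, against 99.03, 95.5 and 99.6% in Type6, and also overlapped.

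Of 12 genes of the DNA methylation machinery, 7 had a placed promoter and 3 could be tested. Dnmt1 was called higher; Uhrf1, which guides DNMT1, had 4.45, 0.096 and 0% in Type7, against 0% in the 3 Type6 libraries. Tet2, an enzyme that oxidises methylcytosine, had 13.4 and 29.6% in Type7, against 46.9, 0 and 7.87% in Type6. Of 14 oocyte genes 1 could be tested (Nlrp5, a maternal-effect gene, 3.83, 0 and 0% in Type7, against 0, 10.2 and 17.6% in Type6), of 10 germline genes 1 (Tex101) and of 9 granulosa cell genes 0; none was called.

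Maternal imprint control regions were close to full methylation in Type7. Of 18 windows, 16 had a value in both stages, and the mean was at least 90% in all 16 in Type7 and in 9 of them in Type6. Over the 8 windows measured in all 6 libraries the mean was 96.9, 97.9 and 96.9% in Type7, against 84.5, 93.9 and 89.6% in Type6. Every Type7 library was above every Type6 library; the difference was 7.91 points (two-sided exact permutation p = 0.1, the smallest possible). Left-out libraries and processing alternatives gave 6.74 to 10.2 points, with 6.93 points without Type6 replicates 1 and 2. A window's level pools the sites that each library read. Their number differed between libraries in all 8 windows, so the values do not compare the same CpGs throughout.

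**Figure D5:**
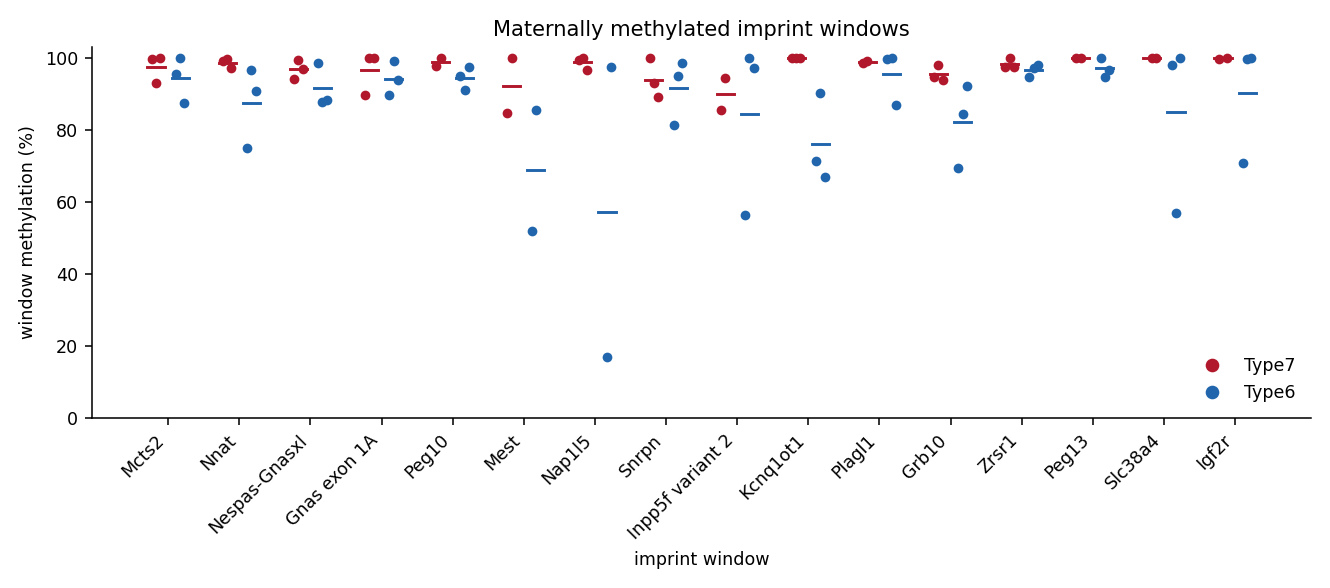
Methylation (percent) of 16 maternally methylated imprint windows in each Type7 library (red, left) and Type6 library (blue, right); points are libraries and bars are means of the libraries with a value. Type7 means lie at or above 90.1%, while Type6 means reach down to 57.2% (Nap1l5, where the low Type6 library read 20 sites and the other libraries 7 or 8).

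The window of Kcnq1ot1, a long non-coding RNA that silences its neighbours on the paternal copy, was at 100% in the 3 Type7 libraries, against 71.4, 90.3 and 67% in Type6. Grb10, an adaptor that restrains growth signalling, had 94.9, 98.1 and 94.0% in Type7, against 69.5, 84.6 and 92.4% in Type6. Nnat, which encodes neuronatin, had 99.2, 99.7 and 97.3% in Type7, against 75.1, 96.7 and 90.9% in Type6. Grb10 rested on 16, 32 and 15 sites in Type7, against 41, 27 and 28 in Type6. Nnat rested on 21, 16 and 32 sites in Type7, against 37, 27 and 37 in Type6. For Kcnq1ot1 it was 10 sites in each Type7 library and 11 in each Type6 library. These 3 windows did not overlap between the stages, nor did Peg10, which had 97.9 and 100% in 2 Type7 libraries, against 95.1, 91.2 and 97.5% in Type6.

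Other windows were at or near their Type7 level in Type6 already. Zrsr1 had 97.4, 100 and 97.7% in Type7, against 94.8, 97.2 and 98.1% in Type6, and Snrpn had 100, 93.0 and 89.1% in Type7, against 81.4, 94.95 and 98.6% in Type6. In several windows 1 Type6 library was far below the others: Nap1l5 had 99.6, 100 and 96.8% in Type7, against 16.8 and 97.6% in 2 Type6 libraries. The 16.8% rests on 20 sites, against 7 or 8 in the 4 other libraries with a value, so these are not the same CpGs throughout. Igf2r, the receptor that clears the growth factor IGF2, had 99.9 and 100% in 2 Type7 libraries, against 70.8, 99.8 and 99.9% in Type6. Slc38a4, an amino acid transporter, had 100% in 2 Type7 libraries, against 98.0, 56.8 and 100% in Type6. The low library was replicate 1 for Igf2r and replicate 2 for Nap1l5 and Slc38a4.

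Among single called tiles measured in all 6 libraries, the largest gain lay on chr11:88311601-88311700. It had 100, 100 and 82.4% in Type7, against 0, 20.9 and 2.07% in Type6 (quasi-binomial adjusted p = 0.0115). These levels rest on few reads in several libraries: 75, 17 and 17 in Type7, against 15, 139 and 241 in Type6, over 3 shared sites. The call was lost without Type7 replicate 1, under the replicate block and in the fit on 6 libraries. Adjacent tiles on chr4:118032701-118032900 were both called. The first had 100, 97.5 and 66.3% in Type7, against 2, 5.26 and 23.2% in Type6, from 133 to 1334 reads a library over 15 shared sites. On the X chromosome, chrX:147091401-147091500 had 96.1, 100 and 100% in Type7, against 31.8, 22.5 and 17.2% in Type6 (quasi-binomial adjusted p = 6.73e-06). The gains thus included tiles that no placed promoter covers, and 4 of 2941 tiles tested on X were called higher (0.136%, against 0.387% of all tiles tested).

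Gains also formed short runs. Called tiles at most 1000 bp apart joined into 46 regions with 93 of the 236 tiles, and 143 stood alone. The longest region, chr10:80269901-80270200, held 3 tiles and had 92.3, 100 and 95.1% in Type7, against 31.1, 39.2 and 9.1% in Type6. The region at chr1:78306601-78306800 held 2 tiles over the Sgpp2 promoter described above. Among the lower tiles 6 regions held 12 tiles and 65 stood alone.

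Among called tiles measured in all 6 libraries without overlap, the largest loss lay on chr15:26177901-26178000, with 1.09, 2.09 and 1.51% in Type7, against 98.4, 98.1 and 96.9% in Type6 (quasi-binomial adjusted p = 0.00147), from 287 to 881 reads a library. Its earlier stage means were 4.31% in Type1, 2.84% in Type2, 38.3% in Type3a, 15.6% in Type3b, 58.6% in Type4, 6.13% in Type5a and 0% in Type5b. The means thus did not run in 1 direction, and the library values behind them are not given. Type4 also holds libraries with high X tiles. This tile was called under all 16 alternatives that measured it, also in the fit on 6 libraries. The next in that set, chr11:69614301-69614400, had 0.562, 33.1 and 0% in Type7, against 75.9, 79.5 and 62.4% in Type6 (quasi-binomial adjusted p = 0.0138), and a Type5b level of 12.2%; its call was lost without Type7 replicate 1, without Type6 replicates 1 and 2 together, in the fit on 6 libraries and in edgeR.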

How the data were processed

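Reduced representation bisulfite sequencing libraries of mouse oocytes were analysed from the authors' deposited files, which list, for every CpG, a total read count, a methylated read count and their ratio as a fraction. BSMAP 2.89 and mm9 are named in the submitters' processing notes; the caller, trimming and duplicate handling were not given in the sources used here. No site under 3 reads is listed. Without molecular identifiers PCR copies count as reads, and incomplete conversion reads as methylated. The lowest total was 12070769 reads, in Type7 replicate 3.

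Reads of sites covered 5 times or more were added up per 100-bp tile, keeping tiles with at least 3 such sites. Tiles measured in at least 2 libraries of both stages entered a quasi-binomial model with stage as factor over all 31 libraries. Dispersions were moderated as in limma and floored at 1; contrasts used F tests with Benjamini-Hochberg adjustment. Residual degrees of freedom count only stages whose pooled level is above 0 and below 100%, a form chosen after the counts of both forms were seen. On simulated reads the test called more unchanged tiles than its nominal rate. Exact permutation tests, two-sided, served for values per library. Same-numbered libraries did not deviate together, so the numbers were not used as pairs.

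Of 32851 RefSeq promoter sequences, 8764 were placed by matching the spacing and neighbouring bases of at least 5 sites; 61 that fitted several places were left out, and 5 of 8745 neighbouring pairs were out of order. Imprint windows were drawn from general knowledge of mm9, and 4 of them held the placed promoter of their own gene. In each direction, the 12 called tiles that differed most, among those measured in all 6 libraries without overlap, are the named ones, of which a few are described; named promoters are the 10 chosen likewise. The comparison, lists and tests were chosen with earlier results of these data known. The classes by Type2 level and the promoter test were added after seeing the data. Alternatives were other read and site minimums, tile sizes, read limits, fits and left-out libraries. Software: edgeR 4.0.16 and limma 3.58.1 in R 4.3.3; Python 3.11.15 with scipy 1.17.1, pandas 2.3.3 and numpy 2.4.6.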

Additional observations from a re-analysis of the deposited data

Results flagged for a closer look

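Reads on the mitochondrial genome, outside the tiles, were methylated in 10.5, 12.0 and 12.8% of cases in Type7 replicates 1, 2 and 3, each above the 3 Type6 libraries at 1.70, 10.5 and 7.27%. The Type7 and Type6 shares rest on 1925, 2025 and 998 reads in Type7, against 7835, 3352 and 2560 reads in Type6, over 26 sites. In the H19 window, a paternally methylated region, 15 of 19 reads were methylated in Type6 replicate 1 at 2 sites, against 0 of 19 in Type7 replicate 2.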

How the results depend on the processing

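Of the differences between stage means, those of the 8 classes by Type2 level, the CpG density classes, the mean level and the imprint windows kept their direction under every alternative run for them. Counts of called tiles were 236 higher and 77 lower. They became 0 and 1 in the fit on the 6 libraries, where edgeR over all libraries called 166 higher and 120 lower, and 623 and 287 with residual degrees of freedom counted over all stages, an alternative added after seeing the data. limma gave 543 higher, tiles measured in all 3 libraries of both stages 122, and sites with at least 10 reads 154. Lower calls were 36 with at least 5 sites a tile and 20 with at most 10 reads per site, where the left-out pair mean reversed to 0.88 points; it was -3.92 points with at least 5 sites. Leaving out 1 library gave 63 to 295 higher and 17 to 156 lower; the lowest counts were without Type7 replicate 1 and the highest without Type6 replicate 3. Without Type6 replicates 1 and 2 it was 151 and 36, and the X difference, -4.17 points, reversed to 0.87. The labels share replicate numbers; same-numbered libraries correlated at -0.00407, -0.00231 and 0.0101 over tiles, and a replicate block gave 266 higher and 171 lower tiles, 27 promoters higher and 4 lower, and -3.89 points for the mean level.

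Promoters called, 48 higher and 1 lower, were 8 and 2 in the fit on the 6 libraries and 7 and 0 in edgeR (264 lower at an unadjusted p under 0.05). Where all 3 libraries were needed they were 27 and 0 (145 at an unadjusted p). Lower ones were 3 in limma, 2 with all degrees of freedom, 4 with at least 3 reads a site, 5 with at most 10 reads and 4 without Type6 replicates 1 and 2. Leaving out 1 library gave 25 to 52 higher and 0 to 2 lower. The intermediate share, -0.82 points, reversed to 0.48 with at least 10 reads and 2.53 with at least 5 sites. The class at 80 to 100% in Type5b, -0.092 points, reversed to 0.38 with at least 3 reads and 0.98 in 200-bp tiles, and ranged from -0.085 to 0.30 with 1 library left out. Named tiles stayed called in 79.5% (higher) and 54.6% (lower) of settings, named promoters in 86%. The causes were not tested.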
